A study of Mus musculus with 5 samples.

Results

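The genes studied here encode the nuclear subunits of oxidative phosphorylation. They were taken by name alone: every probe set, array controls aside, whose platform annotation gave exactly 1 gene symbol of the Nduf family (complex I), the Sdh genes (complex II), the Uqcr genes and Cyc1 (complex III), Cox4 to Cox8 (complex IV) or Atp5 (complex V). It found 81 genes of 18193 with a symbol of their own, read by 164 of 45037 probe sets, namely 72 probe sets for 34 genes of complex I, 9 for 4 genes of complex II, 17 for 9 genes of complex III, 35 for 17 genes of complex IV and 31 for 17 genes of complex V. The name pattern also takes in Cox7a2l, a factor known to join complexes III and IV into supercomplexes, and it leaves Ndufa4, known as a complex IV subunit, under complex I.

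The samples were 5 lines derived from Neuro2A cells, which come from a mouse neuroblastoma, and RNA of each line was read on 1 Affymetrix expression array. The knockdown arm held KDM7 KD1 and KDM7 KD2, stable lines in which a different vector targets KDM7, the histone H3 lysine demethylase encoded by Kdm7a. The control arm held EGFP KD (a vector against EGFP), empty vector (the vector without a target) and the untransfected parental cells. The question was what loss of KDM7 does to gene expression in these cells. All 5 lines share the Neuro2A background and standard culture, and no further treatment is labelled. The labels do not say whether a line came from 1 clone, what promoter drove a vector, or that lines were grown as separate cultures, so p-values measure only the spread between these arrays. With 5 arrays their number limits the precision, and the lines of an arm serve as its replicates.

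In oxidative phosphorylation, complexes I and II pass electrons from NADH and succinate to ubiquinone, complex III hands them on to cytochrome c, and complex IV reduces oxygen. Complexes I, III and IV pump protons across the inner mitochondrial membrane, and complex V, the ATP synthase, makes ATP as the protons flow back. Most subunits are encoded in the nucleus, and their genes are known to be served by the transcription factors NRF1, GABP, YY1 and the oestrogen-related receptors (ERR), so that the subunits are made in matched amounts. Neurons are known to depend on it for most of their ATP.

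The promoters of the subunit genes were searched for the letters of these factors. RefSeq promoters (assembly GRCm38.p6, 250 bases before to 50 after the gene start, 300 bases in all) were found for 66 of the 81 genes and were searched on both strands. The NRF1 letters GCATGCGC stood in 9 of 66 (13.6%), against 2.80% of 27025 genes with a promoter and 3.61% of 17492 protein-coding genes. The YY1 letters AAGATGGC stood in 8 (12.1%), against 2.88% of all and 3.22% of protein-coding genes. The GABP and ETS letters CCGGAAGT stood in 5 (7.58%), against 4.0% and 5.29%, and the ERR letters TCAAGGTCA in 2 (3.03%), against 0.407% and 0.332%. At least 1 of the 4 stood in 23 promoters (34.8%), against 9.55% of all genes. The member promoters also had a median GC content of 58.5%, against 52.7% over all promoters, and these shares were not tested. A match describes letters in a window and is not a binding site.

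**Figure D1:**
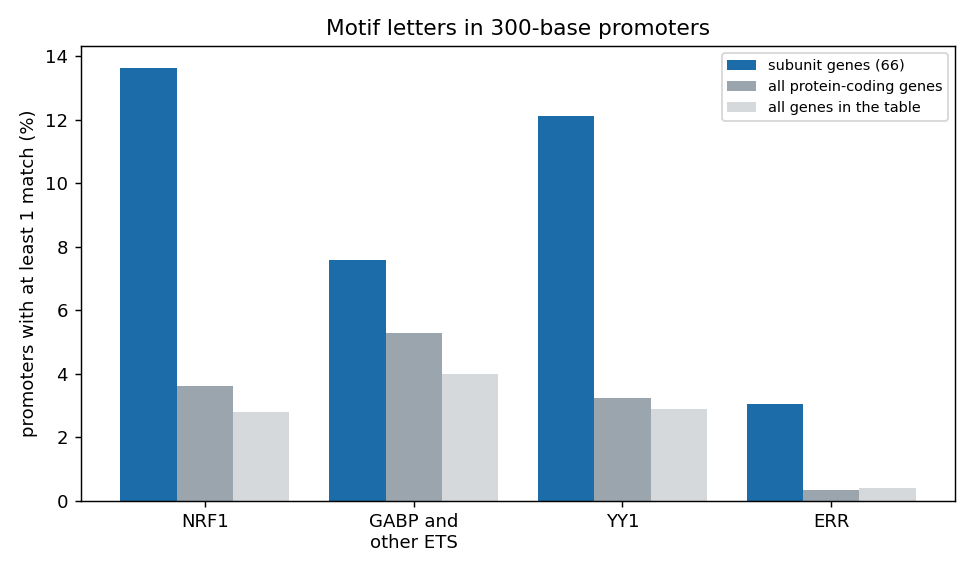
Share of 300-base RefSeq promoters with at least 1 match to the letters of NRF1, GABP and other ETS factors, YY1 and ERR (bars, in percent) for the 66 subunit genes with a promoter, for protein-coding genes and for all genes. The NRF1 bars stand at 13.6% for subunit genes and 3.61% for protein-coding genes, and the YY1 bars at 12.1% and 3.22%.

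All 8 YY1 matches began at or after base 241 of the 300, that is within 10 bases before the gene start or downstream of it, as did 47.4% of the 778 genes with a match in the whole table. Of the 8 genes, 6 encode complex I subunits and 2 encode parts of the ATP synthase. They are printed with up to 12 flanking bases, 5′ to 3′ on the gene's strand, and capitals mark the YY1 letters (their reverse complement in Atp5pb).
Atp5j2 (chr5:145191499-145191530, minus strand): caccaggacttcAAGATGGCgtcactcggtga
Atp5pb (chr3:105959247-105959278, minus strand): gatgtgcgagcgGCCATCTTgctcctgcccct
Ndufa3 (chr7:3617383-3617414, plus strand): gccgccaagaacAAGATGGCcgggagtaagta
Ndufa9 (chr6:126849096-126849127, minus strand): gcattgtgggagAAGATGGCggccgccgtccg
Ndufb8 (chr19:44555393-44555416, minus strand): gcggagaaggtgAAGATGGCtgcc
Ndufc1 (chr3:51408914-51408945, minus strand): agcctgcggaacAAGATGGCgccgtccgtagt
Ndufs4 (chr13:114388045-114388071, minus strand): tttgcctacaggAAGATGGCggcggtc
Ndufs7 (chr10:80249461-80249492, plus strand): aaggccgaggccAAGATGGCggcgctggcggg

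The NRF1 letters overlap their own reverse complement where they lie within GCGCATGCGC, which counts as a match on each strand. This palindrome stood in 4 of the 9 promoters, shown with capitals on it. The other 5 (Atp5l, Ndufa6, Ndufa8, Sdhb and Uqcr11) held a single match.
Atp5g2 (chr15:102671068-102671101, minus strand): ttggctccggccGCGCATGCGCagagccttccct
Atp5k (chr5:108434428-108434461, minus strand): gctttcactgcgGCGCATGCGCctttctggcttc
Cox6a1 (chr5:115349099-115349132, minus strand): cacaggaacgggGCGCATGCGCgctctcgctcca
Uqcrc1 (chr9:108936666-108936697, plus strand): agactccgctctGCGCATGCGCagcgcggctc

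Signals differed between genes by orders of magnitude, but a probe set's brightness depends on its probes, so expression was compared only between lines within a probe set. Where probe sets are called bright or dim, this describes their signal and not the amount of RNA. Array signals are the authors' MAS5 intensities on a linear scale with a common trimmed mean of 500.0. Probe sets at or above the median brightness, a signal of 40.5, were tested, which kept 148 of the 164 (77 of 81 genes) among 22519 tested. The kept members were bright, with a median signal of 8829, against 396 for all tested probe sets. Of the 148, 121 had a mean signal of at least 2000. The highest signal on any array was 35647 to 38130, and the brightest member, Uqcrb 1455997_a_at (a small complex III subunit), reached 32750, so some members lie near the top of the array's range. Of the kept members, 44 have names ending in _s_at or _x_at, meaning that their probes may also match other transcripts.

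The knockdown and the cell type were checked first. Kdm7a 1456150_at had signals of 130 and 136 in KDM7 KD1 and KD2, against 665, 611 and 487 in EGFP KD, empty vector and parental cells, a log2 difference of -2.13 (SE 0.20, limma adjusted p = 0.0627). The other Kdm7a probe sets differed by -1.99 and -1.86, and none passed an adjusted p of 0.05 in this fit. Of the neuroblast markers, 13 of 14 on the array passed the brightness filter, with Stmn2 at 13935 and 13643 in the knockdown lines against 13416 to 14541 in the controls. Their summed signal, to which Stmn2, Chgb, Hand2 and Gap43 add the most, was 62564 and 69118 in the knockdown lines, against 61230 to 65848 in the controls, whereas the marker Th did not pass the filter. Single markers differed by more than their sum. Their median log2 difference was -0.30, against 0.029 over all tested probe sets. Of the 13, 1 (7.69%) lay above every control and 4 (30.8%) below, against 12.6% and 10.2% of all. An unadjusted p under 0.05 in limma was found for 4 (30.8%), against 4.99% of all. Gata3 had 178 and 95.3 in the knockdown lines, against 585, 224 and 554 in EGFP KD, empty vector and parental cells (-1.68, SE 0.45), and Isl1 had 316 and 466 against 1998, 545 and 1493 (-1.62, SE 0.49). Both encode transcription factors of sympathetic neurons. Of the granule proteins, Chga differed by -0.56 (SE 0.22) and Chgb by 0.58 (SE 0.13). The adjusted p of these 4 was 0.908, and the part of these markers in the subunit values was not tested. Markers of fibroblasts summed to 108 and 79.8 in the knockdown lines against 89.6 to 119 in the controls, and those of blood to 41.1 and 26.1 against 22.4 to 54.8. The 3′ to 5′ signal ratio, a measure of RNA degradation, was 0.814 and 0.831 for Gapdh in KDM7 KD1 and KD2, against 0.823 to 0.826 in the controls. For actin it was 1.35 and 1.35, against 1.25 (parental cells) to 1.43 (empty vector). Members made up 3.77% and 3.83% of the summed signal in the knockdown lines, against 3.68% to 3.86% in the controls.

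No subunit gene passed the test in any comparison, and the subunits as a group sat where all other genes sat. The median log2 difference, knockdown minus control, was 0.025 over the 148 members (quartiles -0.06 and 0.09), and 0.029 over all tested probe sets (quartiles -0.13 and 0.20). By complex the medians were 0.0043 for complex I, -0.0092 for complex II, -0.021 for complex III, 0.051 for complex IV and 0.042 for complex V. For complex II, with 7 kept probe sets, the median was -0.025 for KDM7 KD1 minus control and -0.19 for KDM7 KD2 minus control. With limma 0 of 148 members passed an adjusted p of 0.05, as did 0% of all 22519, and the lowest adjusted p of a member was 0.908. At an unadjusted p under 0.05 there were 2 members (1.35%), against 4.99% of all probe sets. These 2 were Ndufc1 1416285_at and Uqcrc2 1435757_a_at, described below. In bulk RNA, fewer expressing cells and less RNA per cell cannot be told apart.

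**Figure D2:**
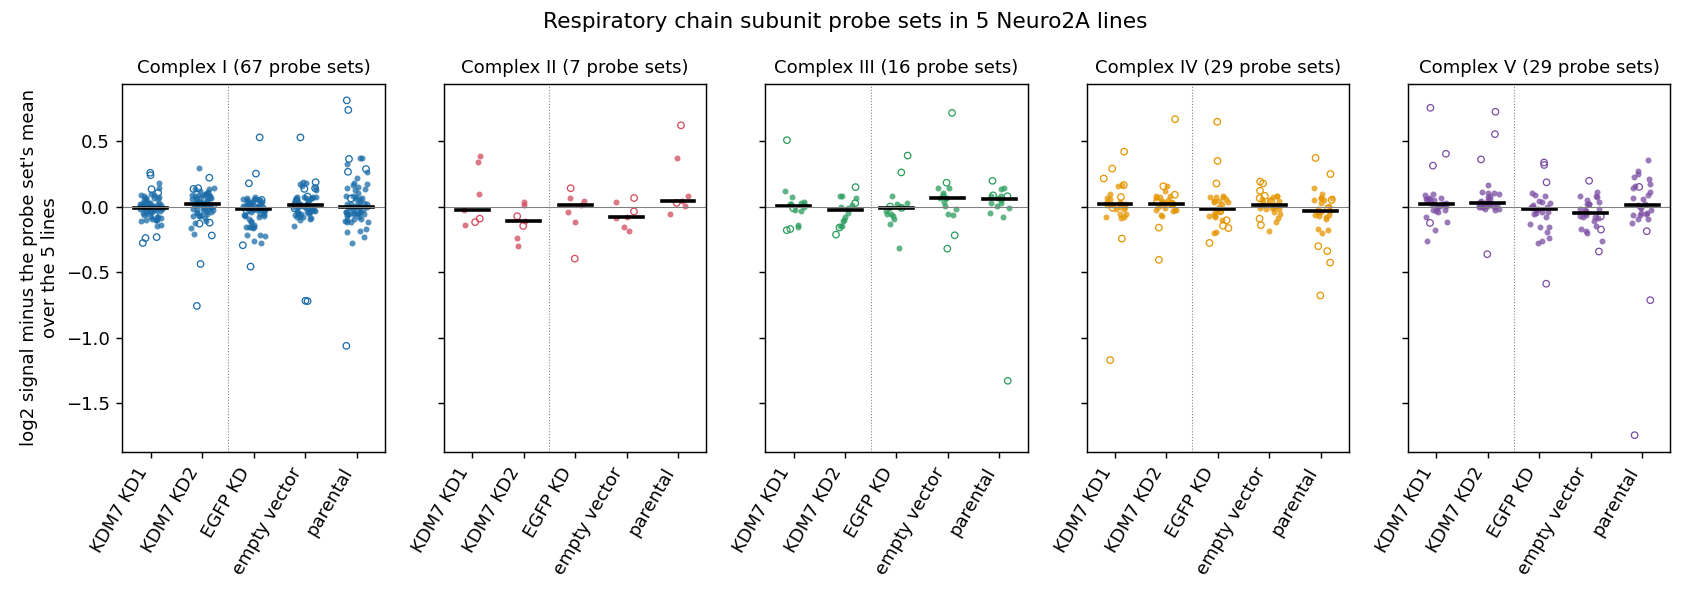
Log2 signal of each kept subunit probe set minus its own mean over the 5 lines (vertical axis), by complex and line, with the knockdown lines left of the dotted line. Filled points have a mean signal of at least 2000, open points less, and bars are medians. The bar farthest from 0 is that of complex II in KDM7 KD2, at -0.11, with -0.078 in empty vector and 0.047 in parental cells. Complex III has 0.064 in empty vector and 0.057 in parental cells. Most of the wide points are dim.

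The data bound a difference more tightly for these genes than for most. The 95% interval of the log2 difference lay within -0.5 and 0.5 for 118 of 148 members (79.7%), against 25.7% of all tested probe sets. Brightness went along with this. Of the 121 members with a mean signal of at least 2000, 117 (96.7%) had such an interval. The share was 76.6% among all tested probe sets at or above 2000. This cut did not match brightness, since the median signal was 9493 for those members and 4189 for those probe sets. The median SD over the 5 lines was 0.10 on the log2 scale for members, against 0.24 for all, and 0.081 against 0.13 among the bright ones. The 27 dimmer members had a median standard error of 0.30, against 0.091 for the bright members, and 1 of the 27 was bounded within -0.5 and 0.5. An adjusted p above the threshold does not show that levels were equal. For each probe set alone, the interval gives the differences left possible by the spread between these arrays. It does not cover the choice of scaling, and centring every array on its own median shifts each difference by -0.11.

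**Figure D3:**
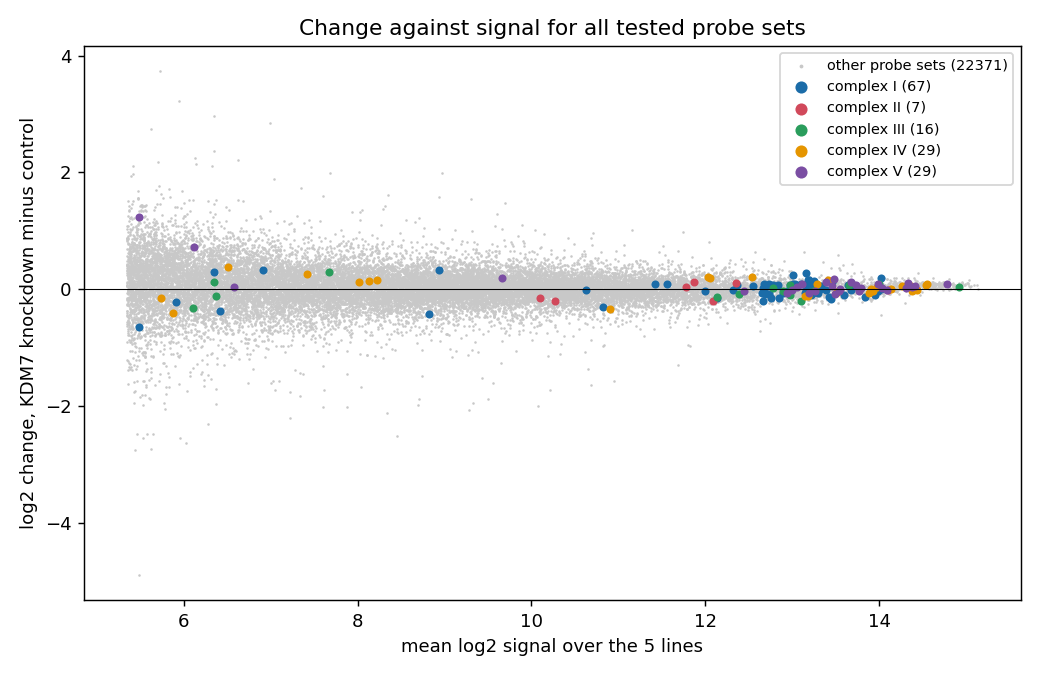
Log2 difference, knockdown minus control (vertical axis), against mean log2 signal over the 5 lines (horizontal axis) for 22519 tested probe sets, with the 148 subunit probe sets coloured by complex. Subunit probe sets cluster at the bright end near 0, and those beyond -0.5 or 0.5 are dim.

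Positions of the lines carry the same picture. For 23 members (15.5%) both knockdown lines exceeded all 3 controls, against 12.6% of all probe sets, and for 19 (12.8%) both fell short of all 3, against 10.2%. Both shares are near the background and are not a result about these genes. The 23 comprised 12 of complex I, 1 of complex III, 5 of complex IV and 5 of complex V, and the 19 comprised 11 of complex I, 2 of complex II, 2 of complex III, 4 of complex IV and 0 of complex V. These positions depend on the scaling of the arrays. Centring every array on its own median lowers each knockdown minus control difference by 0.11, members and other genes alike, and then 2 members (1.35%) lay above every control, against 6.02% of all, and 25 (16.9%) below, against 17.7%. Of the 23 members above as deposited, the 2 that kept that position were the dim probe sets of Atp5c1 and Atp5g2. Of the 19 below, 13 kept theirs. The difference between the member median and the median of all was -0.0033 under both scalings.

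Among single lines, the parental cells gave the highest signal of the 5 for 45 members (30.4%), against 23.0% of all probe sets, and EGFP KD for 20 (13.5%), against 23.3%. The median deviation of members from their own mean was 0.0040 and 0.017 in KDM7 KD1 and KD2, against -0.015 in EGFP KD, 0.0086 in empty vector and 0.0044 in parental cells. These shares were not tested.

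Complex I, NADH dehydrogenase, takes electrons from NADH. Its hydrophilic arm holds Ndufv1, which binds NADH and flavin, the iron-sulphur subunits Ndufs1, Ndufv2, Ndufs7 and Ndufs8, and the core subunit Ndufs3, while its membrane arm holds accessory subunits such as Ndufb8. The large iron-sulphur subunit Ndufs1 had signals of 4043 and 4059 in KDM7 KD1 and KD2, against 4249, 4198 and 3965 in EGFP KD, empty vector and parental cells (log2 difference -0.03, SE 0.10). Ndufs3 had 6017 and 6200, against 5978, 5629 and 6056 (0.05, SE 0.09). Both genes overlapped between the arms.

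Ndufv1 1415966_a_at had 8420 and 8255 in the knockdown lines, against 8111, 7949 and 7696 in EGFP KD, empty vector and parental cells (log2 difference 0.07, SE 0.08, which turns to -0.03 when arrays are centred on their median). The Ndufs7 probe sets, for the subunit that carries the last iron-sulphur cluster before ubiquinone, differed by 0.07 and 0.07, and the brighter one had 7551 and 7497 against 7180, 7013 and 7256 (SE 0.08, -0.04 with centred medians). Both knockdown lines stood above the controls in these sets, while Ndufv1 1456015_x_at overlapped them (0.06, SE 0.09). The flavoprotein partner Ndufv2 had 9374 and 10224 against 10014, 10610 and 10212 in its brightest set (-0.07, SE 0.08), where the arms overlapped. Its sets 1428179_at and 1438159_x_at lay below every control as deposited (-0.07, SE 0.08, and -0.10, SE 0.08).

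Ndufs8, another iron-sulphur subunit, was read by 6 kept probe sets. In 1455283_x_at it had 10327 and 10293 in the knockdown lines, against 9970, 9204 and 8979 in EGFP KD, empty vector and parental cells (log2 difference 0.14, SE 0.08, limma adjusted p = 0.908). In 1434579_x_at the signals were 9919 and 10034, against 9702, 8426 and 8635 (0.16, SE 0.09). Of its 6 sets, 3 lay above every control and 3 overlapped, and the values ran between 0.08 and 0.33. The widest range over the 5 lines in complex I belonged to its dim set 1434212_at, where the parental cells stood lowest at 57.7, against 132 to 174 elsewhere.

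The small membrane subunit Ndufc1 gave 1 of the 2 unadjusted p-values under 0.05. Its set 1416285_at had 9085 and 9083 in KDM7 KD1 and KD2, against 7413, 8604 and 7225 in EGFP KD, empty vector and parental cells. That is 1.18-fold, a log2 difference of 0.23 (SE 0.10, 95% interval 0.0012 to 0.47, unadjusted p = 0.049 and adjusted p = 0.908 in limma). The knockdown lines were nearly equal and stood above all controls, and without any 1 array the value ran between 0.19 and 0.31. With arrays centred on their median it was 0.12, and the arms overlapped. The second Ndufc1 set, 1448284_a_at, differed by 0.19, but empty vector at 18501 exceeded both knockdown lines at 17640 and 18282. The promoter of Ndufc1 (chr3:51408906-51409205 of GRCm38.p6, minus strand) is shown whole, since the YY1 letters, in capitals, lie just after its start.
Ndufc1: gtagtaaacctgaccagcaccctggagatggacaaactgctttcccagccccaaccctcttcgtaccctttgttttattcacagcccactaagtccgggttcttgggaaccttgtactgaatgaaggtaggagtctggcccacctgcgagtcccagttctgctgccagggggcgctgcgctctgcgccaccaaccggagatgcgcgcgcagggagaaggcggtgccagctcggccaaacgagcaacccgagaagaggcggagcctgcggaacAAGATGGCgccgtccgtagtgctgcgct

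Other complex I sets lay below the controls. Ndufb11 1416057_at, for an X-linked membrane arm subunit, had 6114 and 5824 in the knockdown lines, against 6322, 6170 and 8399 in EGFP KD, empty vector and parental cells (log2 difference -0.21, SE 0.14). The parental cells alone stood high, and without them the value was -0.07. The brighter Ndufb11 sets 1455911_x_at and 1416056_a_at overlapped the controls (-0.17, SE 0.13, and -0.14, SE 0.11) and were also highest in the parental cells. Ndufa1, the other X-linked member, was likewise highest in the parental cells at 19080, with 13899 and 13849 in the knockdown lines, against 12697 in EGFP KD and 14755 in empty vector (this gene was picked after its values were seen).

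Ndufa7 shows how sets of 1 gene can differ. Of its 5 kept sets, 3 lay above every control and 1, 1455749_x_at, lay below, with 1539 and 1669 against 1882, 1843 and 2217 (-0.30, SE 0.14). Its brightest set, 1428360_x_at, had 11448 and 12133 against 10107, 11339 and 11182 (0.12, SE 0.09). The membrane arm subunit Ndufb8 had 12926 and 13073 against 13311, 13116 and 13131 in the controls, below all of them by -0.02 (SE 0.07), with a whole range over the 5 lines of 0.04. Ndufa5 1417286_at differed by -0.16, and the dim sets Ndufa3 1430149_at and Ndufc2 1431670_at by -0.38 and -0.64, each with a brighter set of the gene nearer 0. For the dim Ndufc2 set the value was -0.27 without KDM7 KD2 and -1.01 without KDM7 KD1.

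Complex II, succinate dehydrogenase, links the citrate cycle to ubiquinone. The flavoprotein Sdha had 1 knockdown line on each side of the controls, a gap that did not pass the test. Sdha 1426688_at had 4459 in KDM7 KD1 and 2868 in KDM7 KD2, against 3688, 3094 and 3724 in EGFP KD, empty vector and parental cells. The second set, 1426689_s_at, had 4875 and 3157, against 3757, 3347 and 3741. KDM7 KD1 was the highest and KDM7 KD2 the lowest of the 5 lines in both sets, so the arm difference, 0.04 (SE 0.19) and 0.12 (SE 0.18), changes sign with the line left out: for 1426688_at it was -0.28 without KDM7 KD1 and 0.35 without KDM7 KD2.

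KDM7 KD2 minus KDM7 KD1 was -0.64 for 1426688_at (SE 0.24) and -0.63 for 1426689_s_at (SE 0.22), with unadjusted p of 0.029 and 0.022 and adjusted p = 1.00 in limma. Each knockdown line has 1 array here and is assumed to vary like the controls. Over all members 0 of 148 passed that comparison, against 0.00444% of all tested probe sets, a single unnamed set, 1440557_at. At an unadjusted p under 0.05 there were 3 of 148 members, both Sdha sets and Cox6a2 1457633_x_at, against 1.5% of all. Single-line tests gave 0 members past the threshold for KDM7 KD1 minus control, against 0% of all, and 0 for KDM7 KD2 minus control, against 0.00444%. Unadjusted, 2 of 148 members had a p under 0.05 for KDM7 KD1, against 1.99% of all, and 1 for KDM7 KD2, against 2.72%.

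The iron-sulphur subunit Sdhb had signals of 17309 and 17703 in the knockdown lines, against 18094, 16651 and 18149 in EGFP KD, empty vector and parental cells (-0.01, SE 0.07). Of the membrane anchors, Sdhc 1448630_a_at had 5608 and 5379 against 4827, 5384 and 5046 (0.11, SE 0.10), while its dimmer set 1435986_x_at had 1164 and 1120 against 1367, 1298 and 1265 (-0.20, SE 0.14). The 2 Sdhc sets thus pointed opposite ways. Sdhd 1428235_at had 3956 and 4035 against 4243, 4109 and 5635 (-0.21, SE 0.15). As with Ndufb11, the parental cells alone stood high, and without them the difference was -0.06. The dimmer Sdhd set 1437489_x_at had 1010 and 1042 against 833, 1069 and 1685 (-0.16, SE 0.27), the widest range in the complex. There the arms overlapped, and without the parental cells the difference was 0.12.

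**Figure D4:**
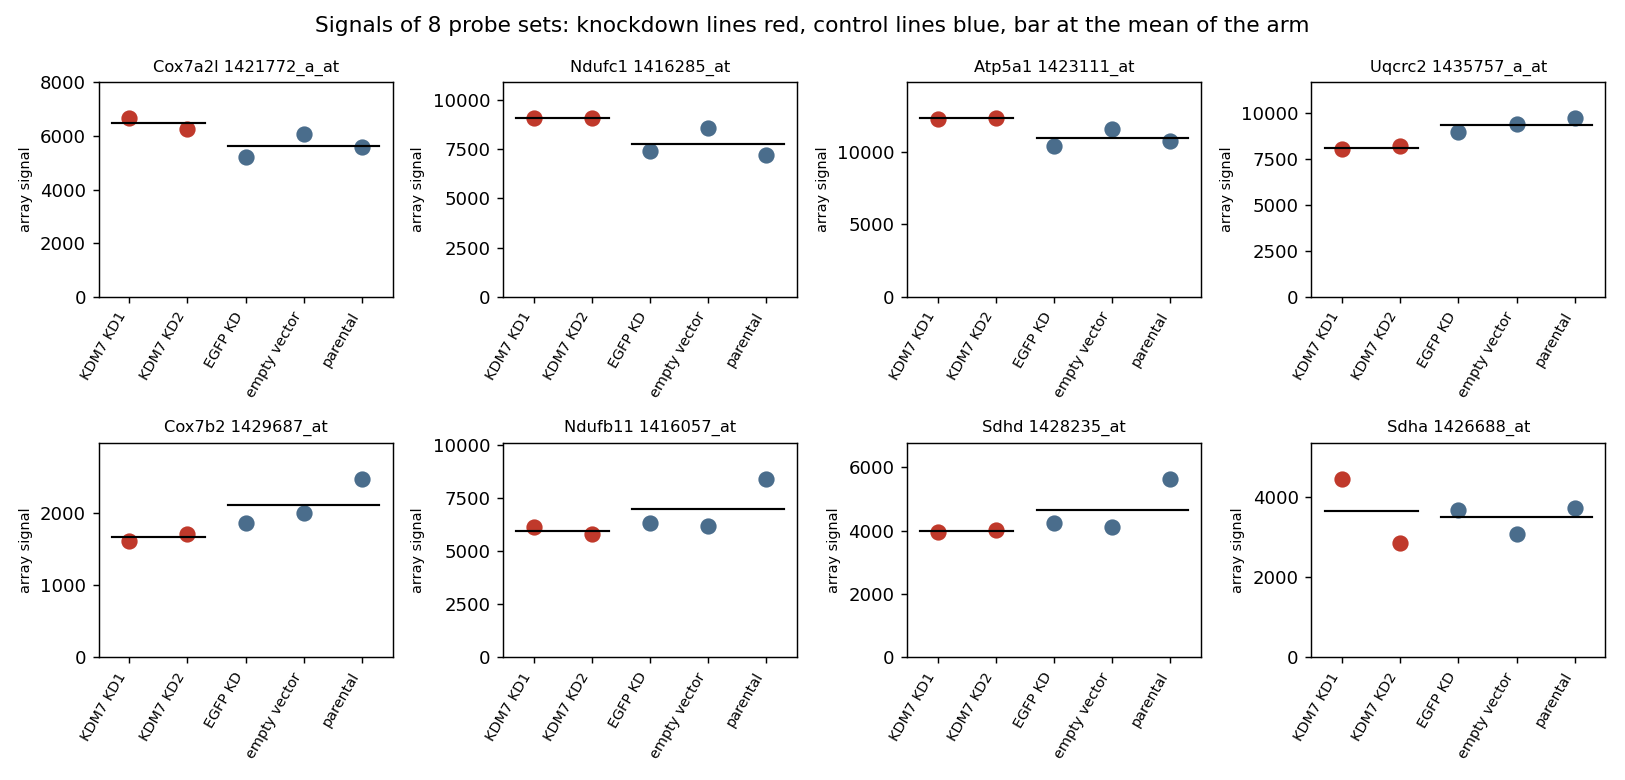
Array signal (vertical axis, linear from 0) in each of the 5 lines for 8 subunit probe sets, with KDM7 knockdown lines in red at the left, control lines in blue and a bar at the mean of each arm. In the Ndufb11 and Sdhd panels the parental line stands apart at 8399 and 5635, and the knockdown lines of Sdha stand at 4459 and 2868.

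Complex III, the cytochrome bc1 complex, holds the core proteins Uqcrc1 and Uqcrc2, the Rieske iron-sulphur protein Uqcrfs1 and cytochrome c1 (Cyc1). Uqcrc2 1435757_a_at gave the other unadjusted p under 0.05. It had 8008 and 8173 in KDM7 KD1 and KD2, against 8976, 9368 and 9709 in EGFP KD, empty vector and parental cells. That is 0.866-fold, a log2 difference of -0.21 (SE 0.08, 95% interval -0.40 to -0.02, unadjusted p = 0.036 and adjusted p = 0.908 in limma). Both knockdown lines were below all controls, and the value ran between -0.24 and -0.18 without any 1 array. The second Uqcrc2 set did not share this: 1428631_a_at had 7456 and 7611 against 7572, 7659 and 7751 (-0.02, SE 0.08).

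Uqcrc1 had 8167 and 8425 in the knockdown lines, against 7659, 7756 and 8337 (0.07, SE 0.09). The Rieske protein Uqcrfs1 had 7150 and 7114 against 5665, 7795 and 7791, where EGFP KD stood low (0.03, SE 0.15). Cyc1 had 16591 and 17340 against 16384, 16148 and 15496, above all controls (0.08, SE 0.07, and -0.03 with centred medians). The widest range in the complex came from a dim set of the small subunit Uqcr10, 1434341_x_at, with 289 and 182 against 244, 334 and 81.0. A second dim Uqcr10 set, 1434340_at, differed by -0.32 (SE 0.30), and the bright one by -0.14 (SE 0.11). Uqcr11, a small subunit with signals of 5281 and 5099 against 5674, 5624 and 5210 (-0.08, SE 0.10), is the 1 gene whose promoter held the letters of both an ETS factor and NRF1. Its promoter (chr10:80406772-80407071 of GRCm38.p6, minus strand) is shown with the ETS letters first and the NRF1 letters second in capitals.
Uqcr11: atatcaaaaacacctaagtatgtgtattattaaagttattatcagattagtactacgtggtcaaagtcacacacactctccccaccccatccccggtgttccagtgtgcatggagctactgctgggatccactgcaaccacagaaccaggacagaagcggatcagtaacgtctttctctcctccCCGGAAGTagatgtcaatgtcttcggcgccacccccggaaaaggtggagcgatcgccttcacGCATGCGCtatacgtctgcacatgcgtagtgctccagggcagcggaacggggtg

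Complex IV, cytochrome c oxidase, takes its catalytic core from the mitochondrial genome, and the nuclear subunits tested here surround it. Several of them are found in all tissues. Cox4i1, the largest nuclear subunit, had 21720 and 21633 in the knockdown lines, against 20234, 20405 and 22183 in EGFP KD, empty vector and parental cells (0.05, SE 0.07). Cox5a had 21002 and 20912 against 20200, 21478 and 22743 (-0.03, SE 0.07). Cox7a2 had 22111 and 22098 against 21637, 22058 and 23030 (-0.01, SE 0.06). In these 3 genes the knockdown lines lay inside the range of the controls. Cox5b, Cox6a1, Cox6b1 and Cox7c differed by 0.07, 0.08, 0.06 and 0.15 in their brightest sets, with overlap in each. Cox6c had a set above the controls (0.03, or -0.08 with centred medians) and one below (-0.07).

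The small subunit Cox8a lay below the controls in both kept sets. Cox8a 1416112_at had 8816 and 8869 in the knockdown lines, against 9551, 9848 and 9494 in EGFP KD, empty vector and parental cells (-0.12, SE 0.08, 95% interval -0.30 to 0.06). The other, 1448222_x_at, had 8617 and 8712 against 9345, 9462 and 9448 (-0.12, SE 0.08). It was the 1 gene of the 46 with several kept sets whose sets all lay below every control, and it stayed below with each of the 3 other scalings.

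Cox7a2l, the supercomplex factor, lay above the controls in all 3 of its sets. Cox7a2l 1421772_a_at had 6667 and 6277 in KDM7 KD1 and KD2, against 5207, 6091 and 5570 in EGFP KD, empty vector and parental cells, 1.15-fold (log2 difference 0.21, SE 0.10, 95% interval -0.04 to 0.45). The set 1432263_a_at had 4679 and 4447 against 3660, 4158 and 4108 (0.20, SE 0.11), and 1432264_x_at had 4553 and 4631 against 3971, 4430 and 3766 (0.18, SE 0.11). The sets read 1 gene on the same 5 arrays and are not replicates. With arrays centred on their median the 3 values were 0.10, 0.09 and 0.07, and the arms overlapped. Its promoter (chr17:83514284-83514583 of GRCm38.p6, minus strand), shown as that of a gene whose sets all lay above the controls as deposited, held none of the searched letters, so no base is in capitals.
Cox7a2l: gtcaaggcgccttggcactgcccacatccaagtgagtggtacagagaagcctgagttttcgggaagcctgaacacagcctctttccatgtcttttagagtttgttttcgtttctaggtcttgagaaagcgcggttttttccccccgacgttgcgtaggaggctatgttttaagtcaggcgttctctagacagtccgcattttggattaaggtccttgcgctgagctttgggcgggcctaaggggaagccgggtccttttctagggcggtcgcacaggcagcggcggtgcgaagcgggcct

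Tissue isoforms of complex IV other than Cox7b2 were dim or not above the filter. The lung isoform Cox4i2 had 31.6 and 56.7 in the knockdown lines, against 45.5, 45.7 and 15.2 in the controls, and was not kept. The heart and muscle isoform Cox8b stood at 5.01 and 5.13 against 4.15, 3.35 and 4.98, and the testis isoform Cox6b2 at 43.5 and 32.7 against 33.7, 4.83 and 8.76, likewise not kept. Muscle isoforms Cox6a2 and Cox7a1 passed, at 257 and 288 against 329, 292 and 162, and at 295 and 298 against 316, 296 and 208. Both overlapped, and the parental cells were the lowest line of each. Markers of striated muscle summed to 359 and 291 in the knockdown lines, against 402, 376 and 701 in the controls, with 4 of 7 kept. Of the 4, the troponin gene Tnnt2 lay below every control, at 74.4 and 67.0 against 145, 184 and 351 (-1.58, SE 0.37, unadjusted p = 0.0029 and adjusted p = 0.908 in limma), while Acta1 and Ckm differed by 0.23 (SE 0.56) and 0.27 (SE 0.33). The part of these markers in the isoform values was not tested.

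The testis isoform Cox7b2 was the subunit with the lowest value among the brightest sets of each gene. It had 1614 and 1711 in the knockdown lines, against 1865, 1999 and 2473 in EGFP KD, empty vector and parental cells, 0.793-fold (log2 difference -0.34, SE 0.16, 95% interval -0.70 to 0.03, limma adjusted p = 0.908). Both knockdown lines lay below all controls, and without the parental cells the difference was -0.22. The testis isoform Cox8c, at 209 and 174 against 153, 155 and 169, lay above them (0.26, SE 0.21), and without KDM7 KD1 at 0.13. Markers of male germ cells summed to 122 and 73.3 in the knockdown lines, against 148, 58.1 and 75.5, with 1 of 5 kept, and were not tested as a source. Cox6a2 1457633_x_at, a dim set at 26.1 and 93.3 against 92.0, 67.1 and 46.4, gave the widest gap between the knockdown lines (KD2 minus KD1 1.84, SE 0.67, unadjusted p = 0.027 in limma).

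Complex V, the ATP synthase, has a catalytic head (Atp5a1, Atp5b), a central stalk (Atp5c1, Atp5d) and a membrane ring built from a single protein that Atp5g1, Atp5g2 and Atp5g3 all encode. The head subunit Atp5a1 1423111_at had 12298 and 12349 in the knockdown lines, against 10448, 11610 and 10771 in EGFP KD, empty vector and parental cells, 1.13-fold (log2 difference 0.17, SE 0.08, 95% interval -0.01 to 0.36, limma adjusted p = 0.908). Both knockdown lines lay above all controls. Its set 1449710_s_at overlapped, at 9239 and 9079 against 7297, 9360 and 9400. Atp5b, the catalytic partner, had 20622 and 20264 against 20331, 19854 and 20466 (0.02, SE 0.06), with 0.06 between the highest and lowest of the 5 lines.

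The stalk subunit Atp5c1 1416058_s_at had 29201 and 29355 in the knockdown lines, against 28128, 26185 and 28212 (0.09, SE 0.06, and -0.02 with centred medians). Its second set, 1438809_at, is dim, at 75.4 and 73.8 against 56.4, 42.4 and 13.3. That set gave the highest log2 difference of any member, 1.23 (SE 0.62, 95% interval -0.20 to 2.67), and 0.61 without the parental cells. Both sets lay above the controls, but they differ by more than 1 on the log2 scale, the only gene with such a gap. The ring genes gave 0.05 for Atp5g1, 0.12 for Atp5g2 and 0.05 for Atp5g3. Atp5g2 1415980_at had 11188 and 11309 against 10600, 10156 and 10290 (SE 0.07), above all controls. Its dim set 1456128_at had 85.8 and 101 against 78.6, 54.5 and 42.2 (0.72, SE 0.37).

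Of the remaining parts, the stalk subunit Atp5d and the peripheral stalk subunit Atp5o differed by 0.09 and 0.03 with overlap. Atp5j2 1416269_at, a membrane subunit picked after its values were seen, had 13753 and 13793 in the knockdown lines against 13448, 11668 and 17885, with the parental cells highest and empty vector lowest of the 5. Atp5md, an accessory membrane subunit, differed between the knockdown lines, at 9624 in KDM7 KD1 and 12972 in KDM7 KD2, against 9654, 12208 and 13954 (KD2 minus KD1 0.43, SE 0.25). In complex V 0 of 29 kept sets lay below all controls as deposited, against 10.2% of all probe sets.

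**Figure D5:**
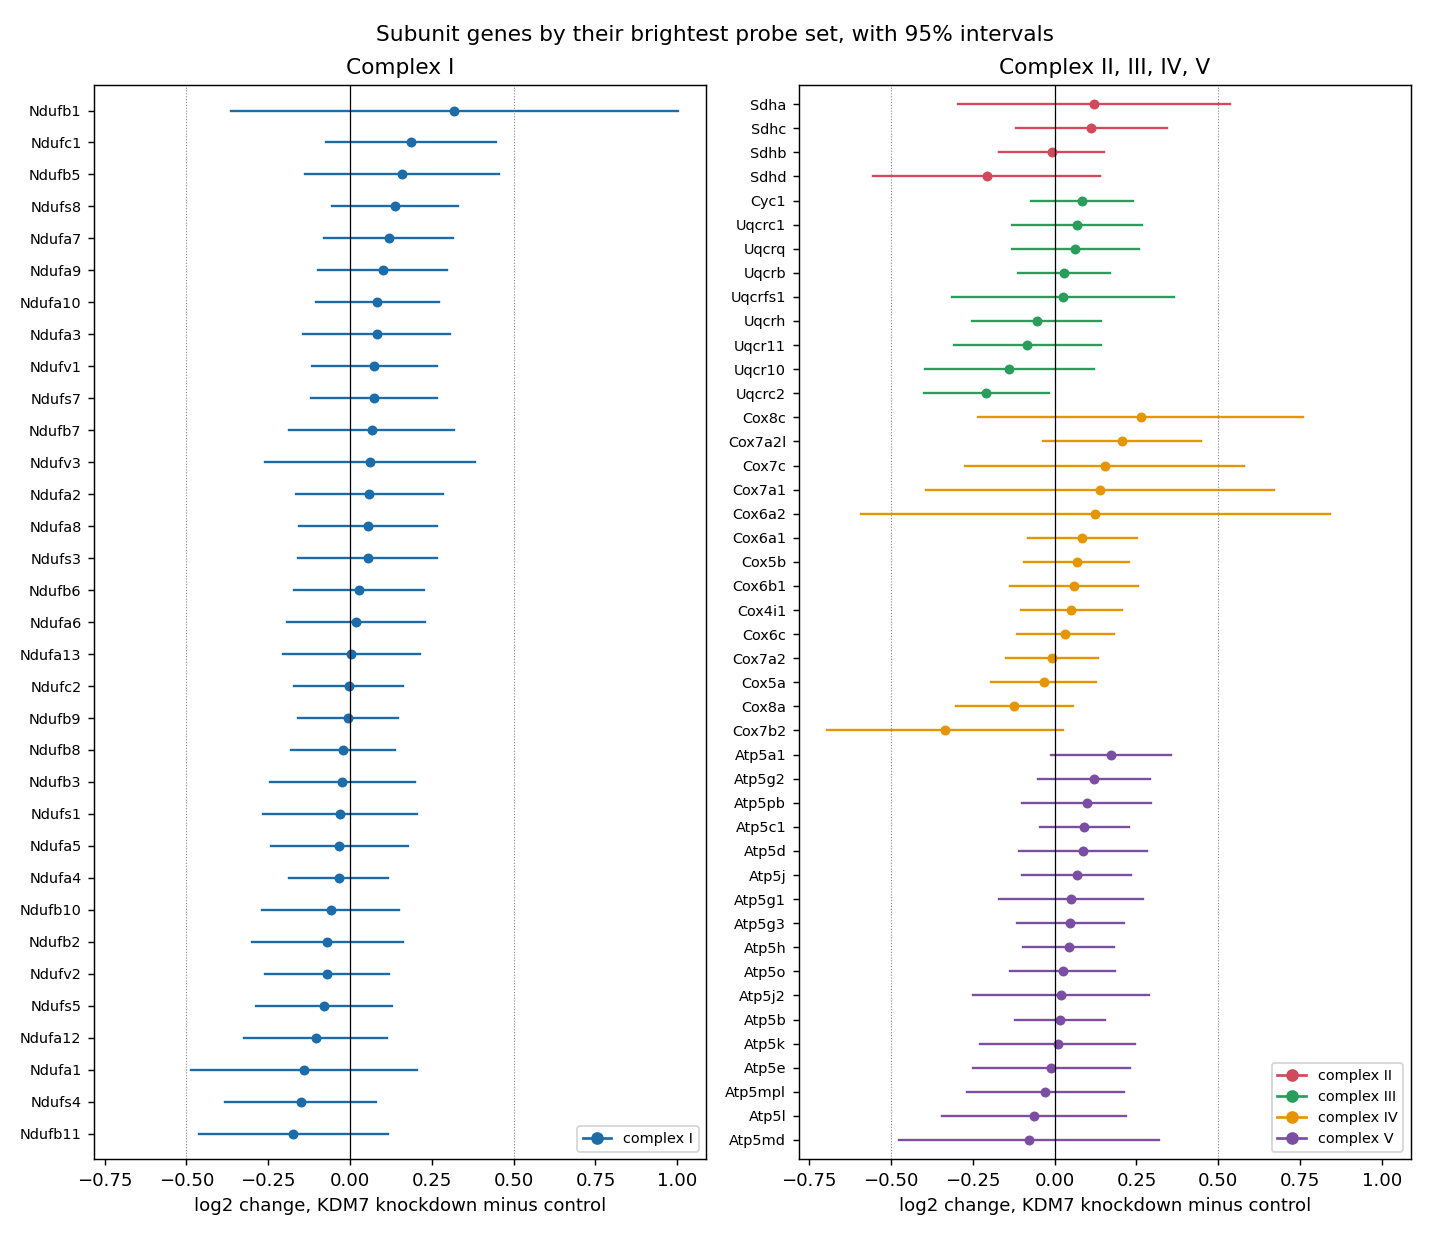
Log2 difference, knockdown minus control, with its 95% interval (horizontal axis) for the brightest kept probe set of each of 77 subunit genes, complex I at the left and the others at the right. Dotted lines mark -0.5 and 0.5, and 69 of the 77 intervals lie between them; the interval of Uqcrc2 is the only one that does not include 0.

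Across the 46 genes with several kept sets, 4 had every set above all controls (Cox7a2l, Ndufs7, Atp5c1 and Atp5g2), 1 had every set below and 2 had sets on both sides (Ndufa7 and Cox6c). The matching shares over all genes of the array are not given here, so these counts are not a result about the subunits. The sets of a gene differed by a median of 0.084 in their log2 difference. By 1 set per gene, 12 of 77 genes (15.6%) lay above and 6 (7.79%) below, against 12.6% and 10.2% of all probe sets, and 48 of 77 values were positive, against 12336 of 22519. These positions are those of the deposited scaling. The differences are also given by promoter letters. The 8 genes with YY1 letters had a median of 0.078 (range -0.15 to 0.19) and the 55 genes without had 0.025 (range -0.34 to 0.32), while the 9 with NRF1 letters had 0.019 and the 54 without 0.027. The 5 with GABP and ETS letters had -0.055 and the 58 without 0.027. For the ERR letters the 2 genes with them had -0.080 and the 61 without 0.026. These medians were not tested.

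Genes that build, feed or regulate the complexes were described from lists by name, with 1 probe set per gene, and 0 members of any of these lists passed in limma. The counts that follow stand beside 12.6% of all probe sets above every control, 10.2% below and 4.99% with an unadjusted p under 0.05. Assembly factors numbered 43 kept, with a median of -0.065 against 0.029 over all, 5 (11.6%) above and 10 (23.3%) below every control and 0 with an unadjusted p under 0.05. Named by size among those set apart, Tmem126b (complex I assembly) had 127 and 184 in the knockdown lines, against 116, 106 and 115 (0.44, SE 0.26). Acad9, of the same assembly complex, had 1111 and 1021 against 813, 942 and 730 (0.37, SE 0.17). Below the controls were the copper chaperone Sco1, at 262 and 282 against 368, 356 and 329 (-0.37, SE 0.18), and the ATP synthase factor Atpaf1, at 684 and 763 against 931, 1002 and 842 (-0.35, SE 0.16).

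The 19 electron and substrate carriers had a median of 0.018, with 1 above and 1 below, and 0 with an unadjusted p under 0.05. They were the outer membrane channel Vdac3 (0.13, SE 0.07) and the coenzyme Q protein Coq10b (-0.17, SE 0.14). The 15 regulators of mitochondrial biogenesis had a median of 0.065, with 2 above, 1 below and 0 unadjusted. Gabpb2 and Gabpa, partners in the factor GABP, differed by 0.42 (SE 0.23) and 0.07 (SE 0.12), and Yy1 by -0.11 (SE 0.09). The 13 citrate cycle genes had a median of 0.042, with 2 above, 1 below and 0 unadjusted. Idh3b and Mdh2 each differed by 0.12, and Dld, the E3 subunit shared by several dehydrogenases, by -0.24. Of 76 mitochondrial ribosomal genes 5 (6.58%) lay above and 7 (9.21%) below, with a median of -0.0040. There 2 (2.63%) had an unadjusted p under 0.05, against 4.99% of all probe sets: Mrps6, at 4868 and 5467 in the knockdown lines against 5968, 6797 and 7524 (-0.38, SE 0.12), and Mrpl24, at 3689 and 3767 against 2834, 3332 and 2832 (0.32, SE 0.12). Their adjusted p was 0.908 in limma.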

How the data were processed

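RNA of 5 Neuro2A lines was read on 1 Affymetrix mouse array per line. The authors deposited linear signal intensities from MAS5, per the submitters' processing notes; the MAS5 version was not given in the sources used. Arrays had been brought to 1 scale before deposit, since the 2% trimmed mean was 500.0 on each. MAS5 intensities of dim probe sets vary strongly, and no detection calls were used.

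Of 45101 probe sets, 64 controls were left out, and 22519 with a mean log2 intensity at or above the median (a signal of 40.5) were tested. Symbols came from the platform annotation, and all 164 member probe sets were found in a RefSeq gene table of GRCm38.p6. Log2 intensities were fitted with limma 3.58.1 in R 4.3.3 (lmFit, eBayes with an intensity trend). The knockdown arm had 2 arrays and the control arm 3, which leaves 3 residual degrees of freedom beside a median prior of 5.06, and p-values were adjusted by Benjamini-Hochberg over all 22519 at 0.05. KDM7 KD1, KDM7 KD2 and control as separate groups gave the single-line differences and KD2 minus KD1. Log2 differences are knockdown minus control, folds are of geometric means and intervals cover 95%. The fit was tested on simulated data, where it made more false calls than intended. The simulated noise was independent between arrays, so lines that vary together were not covered. Promoter letters and figures were made with Python 3.11.15.

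The members, the lists and the alternatives were chosen with earlier results of these data known. Genes were named by rule: catalytic or central subunits and tissue isoforms by their brightest probe set; up to 10 members each way with the largest difference among those set apart from all controls; the widest range over the lines in each complex; the 5 largest differences each way between the knockdown lines; and genes whose probe sets differ by over 1. Of other lists, up to 2 each way were named. Second probe sets of named genes, Uqcrb, Uqcr11, Ndufa1, 1416269_at, Mrps6 and Mrpl24 fall outside it or were added after their values were seen. Ndufa10 1418068_at, Atp5a1 1420037_at, Atp5o 1437164_x_at and Atp5j2 1443495_at were picked by the gap between the knockdown lines. They are counted as named but not described above. Their differences, knockdown minus control, were -0.23, 0.20, -0.07 and 0.03, and the arms overlapped in each. The labels give no batch or shared replicate number. The alternatives tried were quantile normalization, median centring, cyclic loess, other brightness filters, an offset of 32, eBayes without trend or with robust, array weights, 1 probe set per gene, no _s_at or _x_at probe sets, a threshold of 0.10 and omitting each array in turn.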

Additional observations from a re-analysis of the deposited data

How the results depend on the processing

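No member passed the threshold under any alternative tried, whether knockdown against control or KDM7 KD2 against KD1, and the lowest adjusted p of a member was 0.485, with limma and without the empty vector array. The member median, 0.025, was 0.0040 after quantile normalization and -0.084 after median centring, and between 0.012 (without EGFP KD) and 0.029 when 1 array was left out. Over all tested probe sets, knockdown against control gave 0 calls as reported, 2 with the filter at the 70th percentile, 2 with trend and robust, 5 with array weights, 2 without _s_at and _x_at probe sets, 4 at an adjusted p under 0.10, and 0 to 4 when 1 array was left out (4 without the parental array, 1 without empty vector, 1 without KDM7 KD1). KDM7 KD2 minus KD1 gave 1 call as reported and 0 with median centring, no filter, an offset of 32, eBayes without trend or 1 probe set per gene, and 0 (without EGFP KD) to 2 (without empty vector) when 1 array was left out. Of 28 named probe sets with both knockdown lines on one side of all controls, 5 changed sign, under median centring: Ndufs7 1424313_a_at at -0.036, Ndufv1 1415966_a_at at -0.035, Cyc1 1416604_at at -0.026, Cox6c 1415970_at at -0.077 and Atp5c1 1416058_s_at at -0.019. Of 32 named probe sets whose arms overlapped, 28 changed sign under some alternative. The cause was not tested, apart from the constant shift of -0.11 that median centring applies. No paired analysis was possible because the labels give the lines no shared replicate numbers. Dim probe sets are limited by signal near background, and 5 arrays limit every interval.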
